A study of Mus musculus with 6 samples.

Results

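Serum response factor (Srf), its coactivators Mrtfa and Mrtfb, the Hippo pathway coactivators Yap1 and Wwtr1 (the gene of TAZ), their DNA-binding partner Tead1, and 4 genes widely used as readouts of these factors, Ccn1, Ccn2, Ankrd1 and Amotl2, were followed in TM4 cells, an established mouse testis line that serves as a culture model for Sertoli cells. The 10 genes were taken by symbol from the 55414 rows of the deposited table, and each symbol matched 1 row. The set was chosen by measured values: Srf and Ccn2 were lower in the treated group of this same comparison, so their differences are given below as a description with no p-value, and counts of called genes that include them support nothing. RNA sequencing covered 3 control libraries and 3 libraries labelled VC. The agent is not settled by the labels, which give vitamin C in the titles but valine both among the characteristics and in the text on the design. No dose, exposure time or passage is stated, and nothing says that replicates came from separate cultures. P-values below therefore measure the spread between these 6 libraries, which may be technical. The same comparison led to the choice of all 10 genes, so the limma values of the other 8 are also a description and not independent support.

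In resting cells, monomeric actin binds MRTF proteins and keeps them from the nucleus. When actin assembles into filaments, MRTF is freed, joins SRF on CArG boxes and turns on genes of the contractile cytoskeleton, while a separate set of partners, the ternary complex factors, takes SRF to immediate early genes. YAP and TAZ are held in the cytoplasm when LATS kinases of the Hippo pathway phosphorylate them, and otherwise bind TEAD proteins on DNA. Both systems respond to cell spreading, tension and actin, and some targets, among them Ccn1, Ccn2 and Ankrd1, answer to both. Sertoli cells rely on actin bundles at the junctions that form the blood-testis barrier.

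Promoter windows from RefSeq (build GRCm38.p6, 250 bases before and 50 after each transcript start) were at hand for 8 of the 10 genes, in 12 windows; Ccn2 and Tead1 had none. The windows below are those in which a CArG box, bound by SRF, or a TEAD motif, bound by TEAD proteins, was found. A motif in a gene's own window does not place that gene on the SRF or the TEAD side. For Wwtr1, 1 of its 2 overlapping windows is shown, and a window of Mrtfb with a TEAD motif 81 bases before its start is not shown. Capitals mark the CArG box, searched as an exact match to CCWWWWWWGG with W for A or T, a pattern that is its own complement. They also mark the TEAD motif GGAATG or its complement CATTCC. Near matches to either were not counted. All are written 5′ to 3′ along the strand of the gene.
Srf, chr17:46556113-46556412, minus strand: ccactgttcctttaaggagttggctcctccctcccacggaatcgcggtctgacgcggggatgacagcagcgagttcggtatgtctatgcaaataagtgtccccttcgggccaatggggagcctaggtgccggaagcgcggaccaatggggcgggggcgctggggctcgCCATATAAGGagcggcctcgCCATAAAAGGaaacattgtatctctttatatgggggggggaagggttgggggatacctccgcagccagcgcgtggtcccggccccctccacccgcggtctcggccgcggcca
Ccn1, chr3:145649936-145650235, minus strand: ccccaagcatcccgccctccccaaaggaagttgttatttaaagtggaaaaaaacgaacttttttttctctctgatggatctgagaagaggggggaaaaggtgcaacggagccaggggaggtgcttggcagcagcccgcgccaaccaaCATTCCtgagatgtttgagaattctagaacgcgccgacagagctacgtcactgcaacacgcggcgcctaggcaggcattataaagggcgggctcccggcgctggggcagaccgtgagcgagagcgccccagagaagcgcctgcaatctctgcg
Ankrd1, chr19:36119795-36120094, minus strand: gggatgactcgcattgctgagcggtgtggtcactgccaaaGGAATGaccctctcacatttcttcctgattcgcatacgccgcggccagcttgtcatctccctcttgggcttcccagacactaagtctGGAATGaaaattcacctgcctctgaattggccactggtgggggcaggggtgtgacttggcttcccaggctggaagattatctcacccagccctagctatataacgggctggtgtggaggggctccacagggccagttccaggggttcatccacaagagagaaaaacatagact
Amotl2, chr9:102717554-102717853, plus strand: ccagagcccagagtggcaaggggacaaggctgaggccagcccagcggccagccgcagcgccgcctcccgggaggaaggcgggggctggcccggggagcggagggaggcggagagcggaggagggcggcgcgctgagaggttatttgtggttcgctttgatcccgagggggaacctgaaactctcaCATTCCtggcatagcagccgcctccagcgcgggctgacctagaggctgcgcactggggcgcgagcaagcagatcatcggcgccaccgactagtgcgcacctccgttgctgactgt
Yap1, chr9:8004547-8004846, minus strand: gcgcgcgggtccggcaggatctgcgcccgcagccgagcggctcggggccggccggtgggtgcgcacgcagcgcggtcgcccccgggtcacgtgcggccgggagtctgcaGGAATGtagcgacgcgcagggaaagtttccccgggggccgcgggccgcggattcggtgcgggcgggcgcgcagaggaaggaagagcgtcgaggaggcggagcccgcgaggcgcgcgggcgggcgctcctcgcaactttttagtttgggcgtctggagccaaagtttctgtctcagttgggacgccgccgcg
Wwtr1, chr3:57575861-57576160, minus strand: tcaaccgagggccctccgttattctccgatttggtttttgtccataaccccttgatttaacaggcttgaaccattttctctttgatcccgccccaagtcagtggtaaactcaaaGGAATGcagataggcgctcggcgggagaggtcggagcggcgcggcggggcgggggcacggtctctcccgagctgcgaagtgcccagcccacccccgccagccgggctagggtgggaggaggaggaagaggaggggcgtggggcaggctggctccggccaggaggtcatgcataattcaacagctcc

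Srf carried 2 CArG boxes, CCATATAAGG at 82 and CCATAAAAGG at 62 bases before its start, and no TEAD motif. No other window of the set held a CArG box, against 1.63% of all 32851 promoter windows that did. The TEAD motif was present in 6 of the 8 genes (Mrtfb, Yap1, Wwtr1, Ccn1, Ankrd1 and Amotl2), against 14.7% of all windows and 14.1% of 9000 tested genes counted over any of their windows. Ankrd1 held it at 210 and at 123 bases before the start, Ccn1 at 103, Amotl2 at 65, Yap1 at 141 and Wwtr1 at 136. The motifs do not overlap one another in these windows. Ccn1, Ankrd1 and Amotl2 belong to the set because they are known TEAD targets, and a match is a description of the letters, not a bound site.

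All values below are the deposited ones, a length-normalised signal scaled across libraries, so genes can be compared by level. Reads recovered from the values numbered 20408425 to 22316857 per library. All 10 genes passed the expression filter, which asked for 3 or more libraries at a value of at least 1, as did 13972 genes in all. Limma called 36 genes (0.258%) lower and 60 (0.429%) higher in VC at an adjusted p under 0.05; with libraries scaled to equal totals these were 35 and 182, and the median difference of all tested genes moved from 0.01 to 0.08 on the log2 scale. The VC values lay wholly below the control values in 11.6% of tested genes and wholly above in 13.9%. Control replicate 3 stood apart in the way described below for long transcripts. Sertoli markers were looked at: of 14 Sertoli genes found in the table, 8 passed the filter, and Wt1, Fshr, Dmrt1 and Shbg were listed at 0 in every library. Cldn11 and Clu also stayed under the filter, at means of 0.02 and 0.48 over the 6 libraries. Of those that passed, Amh (mean 0.82), Gdnf (2.0), Inha (2.5) and Sox9 (3.35) were low. Kitl (19.6), Gata4 (20.5), Inhbb (166.2) and Vim (1238) were higher.

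Srf (ENSMUSG00000015605), the factor on which the MRTF arm converges, had a value of 96.6, 91.7 and 87.6 in control replicates 1 to 3 and 69.9, 74.9 and 71.4 in VC. The highest VC library lay below the lowest control library, and the mean went from 92.0 ± 4.52 to 72.1 ± 2.57 (SD, n = 3 per group), a difference of -21.6%. These values rest on 2103 to 2164 reads in control and 1659 to 1670 in VC. The difference was -0.35 on the log2(value + 1) scale (SE 0.048). It ran from -0.38 to -0.28 over 16 alternative settings.

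Its coactivators did not follow it downward in level. Mrtfa (ENSMUSG00000042292), the more abundant MRTF here, stood at 28.03, 28.8 and 27.4 in control and 28.6, 31.6 and 32.2 in VC. The groups overlapped, through VC replicate 1 alone, and the difference of 0.13 (SE 0.055, limma adjusted p = 0.296) did not pass. Mrtfb (ENSMUSG00000009569) was at 10.3, 10.5 and 8.07 in control and 10.8, 11.7 and 11.2 in VC. Here the groups did not overlap, with VC on the higher side, but control replicate 3 was well under the other controls, and the difference of 0.21 (SE 0.10, limma adjusted p = 0.338) became 0.10 without that library. The 95% intervals of these differences, -0.002 to 0.259 for Mrtfa and -0.028 to 0.451 for Mrtfb, both include 0.

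**Figure D1:**
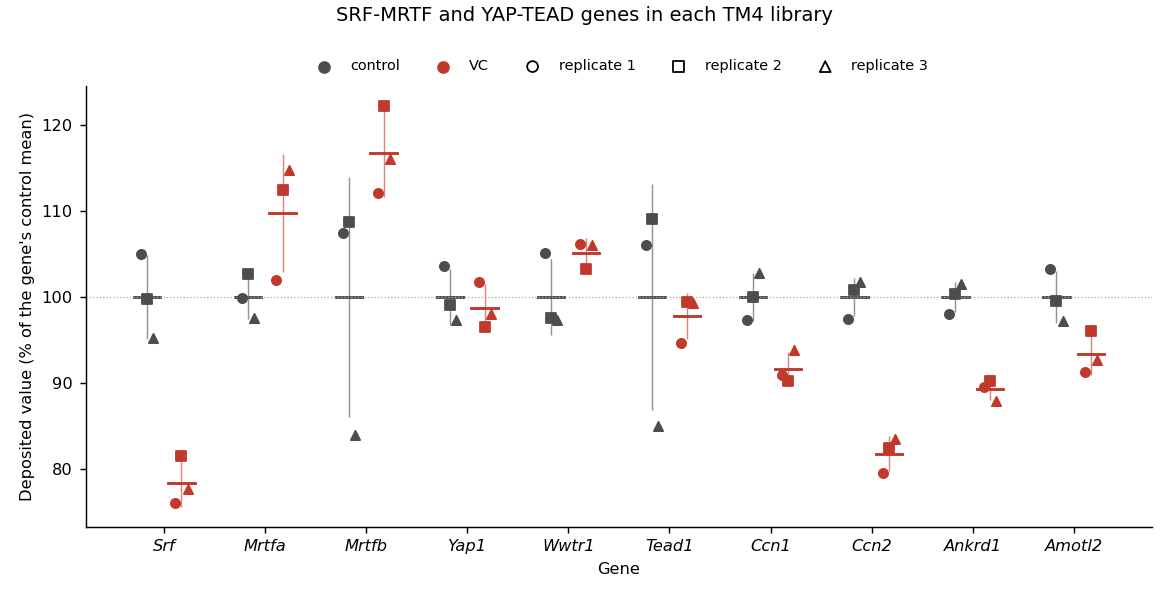
Value of each gene in each library as a percentage of the gene's control mean (vertical axis), for Srf, its coactivators, the YAP-TEAD regulators and 4 targets; grey is control, red is VC, marker shapes are replicates, bars are group means and thin lines 1 SD (n = 3). Srf and Ccn2 show the widest gaps between groups, at -21.6% and -18.2% in VC, while Yap1 and Tead1 overlap and control replicate 3 is low for Mrtfb and Tead1.

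Of the YAP-TEAD regulators, none passed the threshold of limma. Yap1 (ENSMUSG00000053110), the coactivator that LATS kinases restrain, had values of 50.5, 48.3 and 47.5 in control and 49.6, 47.0 and 47.8 in VC. The groups were interleaved, and the difference of -0.02 (SE 0.041, limma adjusted p = 0.864, 95% interval -0.115 to 0.081) turned to 0.05 with equal totals. Wwtr1 (ENSMUSG00000027803), its paralog, was at 78.6, 73.0 and 72.7 in control and 79.4, 77.2 and 79.3 in VC; control replicate 1 fell within the VC range, and the difference was 0.07 (SE 0.042, limma adjusted p = 0.419). Tead1 (ENSMUSG00000055320), which brings the coactivators to DNA, was at 47.4, 48.7 and 37.98 in control and 42.3, 44.4 and 44.4 in VC. All 3 VC values lay between control replicate 3 and the other controls, so its sign turns with the control left out and with the scaling: -0.02 (SE 0.092, limma adjusted p = 0.924) with all libraries, -0.13 without control replicate 3, 0.05 with equal totals, 0.02 without control replicate 1 and 0.04 without control replicate 2.

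All 4 target genes were lower in VC with no overlap between groups. Ccn2 (ENSMUSG00000019997), a secreted matricellular protein also called CTGF, was at 371.0, 384.1 and 387.3 in control and 302.6, 313.8 and 317.7 in VC. The gap between the lowest control and the highest VC library was several times the SD of either group, 380.8 ± 8.62 against 311.4 ± 7.81 (n = 3 per group), a difference of -18.2%. The difference was -0.29 on the log2(value + 1) scale (SE 0.035), between -0.31 and -0.22 over the 16 settings, on 6920 to 9200 reads per library.

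Ccn1 (ENSMUSG00000028195), the related matricellular protein CYR61, was by far the most abundant of the set, at 1282, 1317 and 1354 in control and 1197, 1189 and 1236 in VC. Its mean differed by -8.35%, or -0.13 on the log2 scale (SE 0.037, limma adjusted p = 0.168), by -0.05 with equal totals and by -0.02 with quantile normalization. Ankrd1 (ENSMUSG00000024803), an ankyrin repeat protein of the nucleus and of the muscle sarcomere, was at 343.4, 351.5 and 355.6 in control and 313.5, 316.0 and 307.8 in VC. Its mean differed by -10.8%, or -0.16 (SE 0.031, limma adjusted p = 0.0733), past the threshold neither in this fit nor with equal totals (-0.09, adjusted p = 0.152), though limma-voom on the recovered reads gave an adjusted p of 0.0287 and library weights 0.0433. Amotl2 (ENSMUSG00000032531), an angiomotin that binds YAP and is itself a YAP target, was at 78.0, 75.3 and 73.5 in control and 69.0, 72.6 and 70.1 in VC. Its groups were separated by little, from 72.6 to 73.5, and the difference of -0.10 (SE 0.039, limma adjusted p = 0.264) did not pass. With equal totals it was -0.03 (limma adjusted p = 0.781).

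Counted together, 2 of the 10 genes were called lower, none higher and 8 were not called, where 0.258% of all tested genes were called lower; the 2 are Srf and Ccn2, whose values chose the set, so nothing is read from that share. Below the controls without overlap stood 5 of the 10 (Srf, Ccn1, Ccn2, Ankrd1 and Amotl2; background 11.6%), and 1, Mrtfb, stood above them (background 13.9%). The median difference was -0.06, against 0.01 for all tested genes, and it became 0.01 with equal totals, where that of all genes was 0.08. The count of 2 became 0 when control replicate 1, control replicate 2 or any of the 3 VC libraries was left out, and stayed at 2 without control replicate 3.

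By level, the genes ordered as Ccn1 (1263 ± 66.4, SD over 6 libraries), Ccn2 (346.1 ± 38.7), Ankrd1 (331.3 ± 21.2), Srf (82.0 ± 11.4), Wwtr1 (76.7 ± 3.09), Amotl2 (73.1 ± 3.33), Yap1 (48.5 ± 1.35), Tead1 (44.2 ± 3.83), Mrtfa (29.4 ± 1.98) and Mrtfb (10.4 ± 1.26). Over all 6 libraries the ranges of Ccn2 and Ankrd1 overlapped, as did those of Srf, Wwtr1 and Amotl2 in turn and those of Yap1 and Tead1, and some of these orders differed by group. Srf lay above Wwtr1 in all 3 control libraries and below it in all 3 VC libraries, with no overlap in either group. Ccn2 lay wholly above Ankrd1 in control and overlapped it in VC, where it was higher in 1 of 3 libraries. Wwtr1 overlapped Amotl2 in control and lay wholly above it in VC, and Yap1 likewise overlapped Tead1 in control and lay above it in VC. Since the set was chosen on Srf and Ccn2, the orders that involve them are a description.

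Paralogs were compared within each library, as 6 pairs, by an exact two-sided sign-flip permutation test over the 6 libraries of both groups together, whose smallest p is 0.0312 (0.0375 after Benjamini-Hochberg adjustment over the 6 pairs). Mrtfa exceeded Mrtfb in 6 of 6 libraries, by 2.66 to 3.39 times (exact adjusted p = 0.0375). Wwtr1 exceeded Yap1 in 6 of 6, with Yap1 at 0.603 to 0.662 of Wwtr1 (exact adjusted p = 0.0375). That ratio was 0.643 to 0.662 in control and 0.603 to 0.625 in VC. The ratio of Ccn1 to Ccn2 rests on values that chose the set and is given with no p: it was 3.43 to 3.50 in control and 3.79 to 3.96 in VC, with no overlap. With 1 library left out, 5 libraries cannot reach 0.05, and each pair at 0.0375 then had an adjusted p of 0.0625 or 0.075. All these levels are per exon length.

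Among the TEAD factors, Tead1 did not stand clear of Tead2, at 0.859 to 1.17 times its level (higher in 5 of 6 libraries, exact adjusted p = 0.219), the exception being control replicate 3. Tead1 exceeded Tead4 by 1.48 to 1.77 times and Tead3 by 14.1 to 20.2 times, each in 6 of 6 libraries (exact adjusted p = 0.0375). Group means were 42.6 ± 2.01 and 40.04 ± 1.01 for Tead2, 26.9 ± 1.25 and 28.6 ± 1.27 for Tead4, and 2.57 ± 0.135 and 2.35 ± 0.127 for Tead3 (control and VC, n = 3 each), with the groups overlapping for each. Of the CCN relatives, Ccn4 was at 35.0 ± 2.02 and 38.1 ± 0.989, and Ccn3, at 0.854 ± 0.145 in control and 1.62 ± 0.232 in VC, lay wholly higher in VC without passing (limma adjusted p = 0.195). Ccn5 and Ccn6 reached at most 0.336 and 0.7, and Ankrd2 and Ankrd23, relatives of Ankrd1, at most 0.794 and 1.20.

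**Figure D2:**
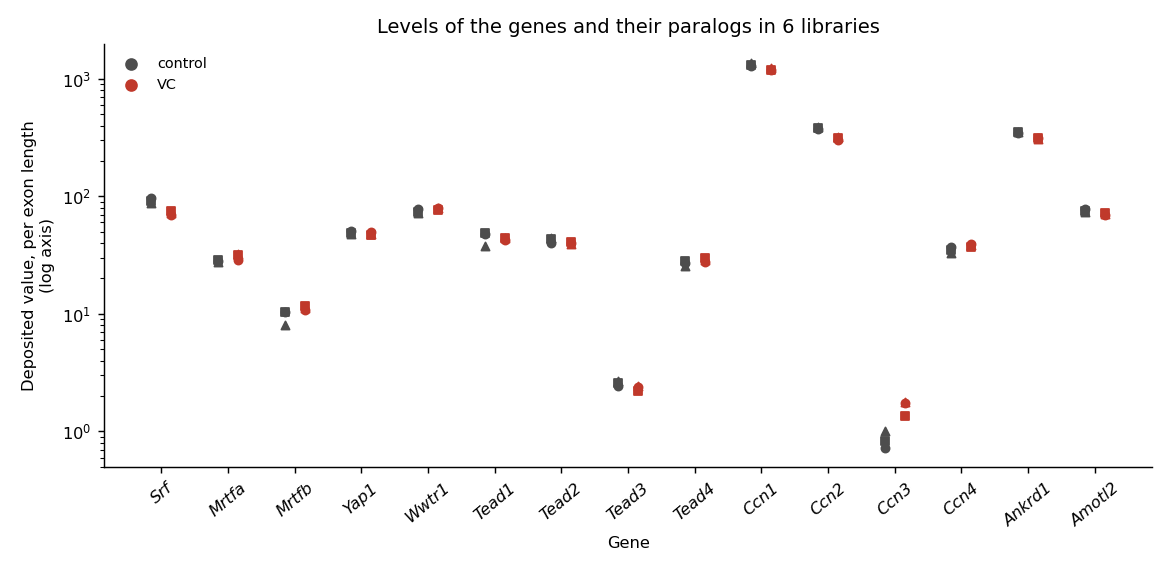
Deposited value per exon length (vertical log axis) of the genes and of the paralogs that passed the expression filter in the 3 control (grey) and 3 VC (red) libraries, 1 marker per library. Ccn1 is highest at 1189 to 1354, Wwtr1 lies above Yap1 and Mrtfa above Mrtfb in every library, and of the genes plotted Tead3 and Ccn3 are lowest.

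Genes controlled by SRF with MRTF, which build the contractile and adhesive cytoskeleton, were listed apart from the set. Of 28 listed, 27 passed the filter. Limma over all genes called 6 lower and none higher, and 21 did not pass. Of all tested genes, 0.258% were called lower and 0.429% higher. On the list, 23 had a difference below 0 and 4 above. The median was -0.19 against 0.01 for all tested genes, and -0.12 against 0.08 with equal totals. Without overlap, 18 lay below the controls and 1, Lima1, above (background 11.6% and 13.9%). This list was compiled with earlier results of these data known, and Acta2, Myl9, Actg2 and Tpm1 had been named in them, so its direction is not independent evidence. Bulk RNA cannot tell fewer cells of a type from less RNA per cell.

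Fhl1, a four-and-a-half LIM domain protein of muscle and stretch signalling, showed the greatest fall of the list, from 21.9, 22.1 and 24.3 in control to 13.03, 11.6 and 14.1 in VC. The difference was -0.775 (SE 0.079, limma adjusted p = 0.019). Acta2, smooth muscle actin and the classic MRTF target, was at 588.9, 604.3 and 645.6 in control against 380.4, 378.0 and 386.5 in VC, with the VC libraries within a narrow band. Myl9, the regulatory light chain of smooth muscle myosin, was at 303.7, 299.6 and 325.9 against 192.0, 204.1 and 182.0, and Actg2, enteric actin, at 117.2, 120.9 and 134.9 against 81.2, 83.9 and 92.0. The tropomyosins Tpm1 and Tpm2, which coat actin filaments, completed the 6, Tpm1 with means of 449.0 ± 14.4 and 367.6 ± 4.82 and Tpm2 with 91.5 ± 4.25 and 74.9 ± 1.67 (n = 3 per group; limma adjusted p = 0.0297 and 0.0496). The rule for named genes takes 5 of a list, and Tpm2 and the genes that follow were picked after their values were seen. Vcl, the focal adhesion protein vinculin and another standard SRF target, did not pass and overlapped between groups at 93.6 ± 9.81 and 86.8 ± 2.88.

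The 4 genes above 0 were Mylk, Smtn, Itga5 and Lima1, none past the threshold. The cytoplasmic actins Actb and Actg1, which form the actin pool that MRTF senses, were lower without overlap but did not pass: Actb went from 4366 ± 180.0 to 3808 ± 55.1 (limma adjusted p = 0.11) and Actg1 from 4349 ± 118.0 to 3803 ± 70.1 (adjusted p = 0.0963). Limma-voom on the recovered reads called 14 of the list lower, these 2 included, and none higher, where it called 1.48% of all 13627 genes in that fit lower and 2.43% higher. Left-out libraries changed the count of falls from 6 to 1 without control replicate 1, to 5 without control replicate 3, and to 0 without control replicate 2 or any of the 3 VC libraries. Of 23 tested genes of the list with a promoter window, 8 held a CArG box (Vcl, Cnn2, Myl9, Actg1, Fhl1, Fhl2, Filip1l and Lima1), 34.8% against 1.61% of tested genes. The list was made of known SRF targets, so nothing is read from that share. Among the genes called lower, Myl9 held CCTAATAAGG 161 bases before its start, and 1 of the 2 windows of Fhl1 held CCTAAAATGG 102 bases before. The windows of Acta2 and Tpm1 held the TEAD motif and no exact match to the CArG pattern. Near matches were not searched for, so this does not mean that Acta2 and Tpm1 lack CArG-like sequences. Of the holders that were not called, Lima1 was above 0. Cnn2, Actg1 and Filip1l were below 0 without overlap between groups, and Vcl and Fhl2 were below 0 with overlap.

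**Figure D3:**
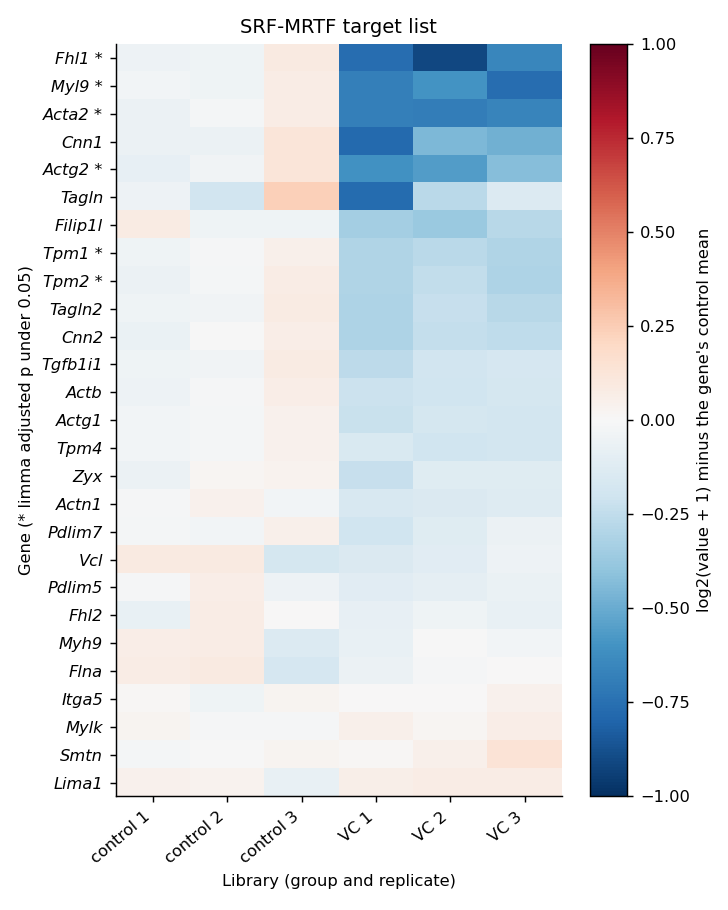
Heat map of 27 SRF-MRTF target genes (rows, ordered by their difference) in 6 libraries (columns); colour is log2(value + 1) minus the gene's control mean, blue below and red above, and stars mark the 6 genes with a limma adjusted p under 0.05. The upper rows are blue in all 3 VC libraries, Fhl1 most, and Vcl, Flna and Myh9 are also blue in control replicate 3.

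Other markers of smooth muscle or peritubular myoid cells, the contractile cells around the tubule, were looked at beside this, since 6 of the 8 myoid markers listed are SRF-MRTF targets as well. The remaining markers were near 0: Myh11, the smooth muscle myosin heavy chain, was at most 0.032 and desmin (Des) at most 0.998. Of the 6 shared markers, Acta2, Actg2 and Cnn1 were lower in VC without overlap. Groups overlapped for Tagln (means 3.78 in control and 2.675 in VC) and for Smtn, whose mean was higher in VC (54.4 and 57.0). Lmod1 was at most 0.491. The summed myoid level was 779.9 to 858.4 in control and 527.8 to 553.4 in VC, most of it Acta2. Its part in the differences of this list was not tested. Of the other cell types, Leydig markers summed to 2.34 to 3.31 in control and 2.74 to 3.53 in VC, germ cell markers to 2.06 to 3.37 and 3.13 to 3.70, macrophage markers to 55.7 to 65.9 and 61.1 to 71.1, and endothelial markers to 41.5 to 45.5 and 44.8 to 50.1. Limma called 0 of the 8 tested genes of these 4 lists, and 0 had an unadjusted p under 0.05. Ddx4, Stra8, Zbtb16 and Kit of germ cells, Adgre1 of macrophages and Hsd3b1 and Lhcgr of Leydig cells were listed at 0 throughout. Most of the macrophage sum was Cd14 (mean 57.2 over 6 libraries), with Cd68 next at 4.16. Most of the endothelial sum was Ecscr (mean 41.8), with Eng next at 1.69.

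Immediate early genes under SRF, listed together with the ternary complex factors, did not share a direction. Of 13 genes tested, limma called 0; 4 were below 0 and 9 above, with a median of 0.06 (0.01 for all genes), 2 were lower and 3 higher at an unadjusted p under 0.05 (all tested genes 8.2% and 9.05%), and limma-voom on recovered reads called 2, Elk1 and Ier3, both higher. The list holds 10 immediate early genes, 4 below 0 and 6 above with a median of 0.07, and the ternary complex factors Elk1, Elk3 and Elk4, all 3 above 0. Ier3, an early response gene that limits apoptosis, was at 223.9, 220.5 and 251.0 in control and 275.3, 288.9 and 304.6 in VC (limma adjusted p = 0.0756, and 0.0488 without control replicate 3). Elk1, a ternary complex factor, was at 12.0 ± 0.603 and 14.5 ± 0.515 (adjusted p = 0.107). Egr1, named although the rule did not take it and after its values were seen, was at 109.4 ± 0.746 and 101.1 ± 0.928, lower with no overlap (limma adjusted p = 0.13). Ier3 and Elk1 lay wholly above and Egr1 wholly below their controls.

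Outside the set, YAP-TEAD targets did not lie below the controls as a group. Of 20 listed, 18 were tested and limma called 0; 7 were below 0 and 11 above, with a median of 0.08 that was 0.03 without control replicate 3. At an unadjusted p under 0.05, 1 was lower and 3 were higher, where 8.2% and 9.05% of all tested genes were, and limma-voom on the recovered reads called 0. F3, tissue factor, was the lower one, at 31.9, 33.9 and 33.9 in control and 27.8, 29.0 and 27.6 in VC (-0.23, SE 0.045, limma adjusted p = 0.0756). Gadd45a, a stress-inducible growth arrest gene, went the other way, with 24.1, 22.1 and 23.8 in control and 25.6, 27.6 and 26.8 in VC (limma adjusted p = 0.15), as did Ptpn14, a phosphatase that binds YAP, from 15.5 ± 2.08 to 18.8 ± 0.0969 (adjusted p = 0.212). Whether these targets differ from Ccn1, Ccn2, Ankrd1 and Amotl2 in their response was not tested, since those 4 were chosen with their values known.

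Hippo kinases and YAP-TEAD partners, which set how much YAP reaches TEAD, numbered 25 tested of 26 listed. Limma called 0, with 0 lower and 4 higher at an unadjusted p under 0.05 (8.2% and 9.05% of all tested genes), while limma-voom on recovered reads called 1, Taok3, higher. The median of 0.07 became 0.02 without control replicate 3. Taok3, a kinase that acts on the Hippo kinases, was at 8.20, 8.26 and 7.33 in control and 9.14, 9.98 and 9.62 in VC (0.245, SE 0.071, limma adjusted p = 0.16). Lats2, itself a YAP target as well as a Hippo kinase, was at 13.9 ± 1.12 and 15.8 ± 0.286 (limma adjusted p = 0.263) and was picked after its values were seen. Lats2 and Ptpn14 count among the higher genes at an unadjusted p under 0.05 both here and among the YAP-TEAD targets. Ajuba and Amotl1 also stand on both lists.

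**Figure D4:**
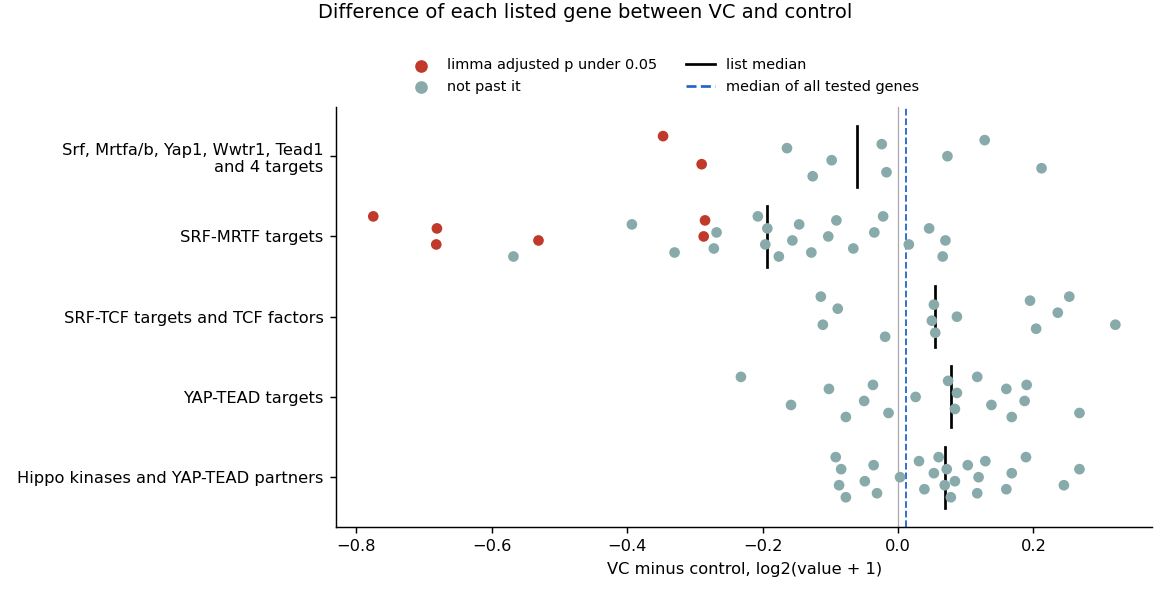
Difference between VC and control on the log2(value + 1) scale (horizontal axis) for each gene that passed the filter, by list; red points passed a limma adjusted p under 0.05, black bars are list medians and the dashed line is the median of all tested genes. Only the top 2 rows, the 10 genes and the SRF-MRTF targets, hold points past the threshold, all below 0; the median is -0.19 for SRF-MRTF targets and 0.08 for YAP-TEAD targets.

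Long transcripts were low in control replicate 3 by their median, and so were several genes of the set. With tested genes split into 4 groups of like size by exon length, taken from GENCODE M21 models, control replicate 3 differed from the mean of the other controls by a median of 0.08 (log2) in the shortest group and -0.10 in the longest. Tead1, with 13570 exonic bases, was lower in that library by -0.33 and Mrtfb, with 8990, by -0.33, but Yap1, with 9257, by only -0.06. Srf, with 2893, was at -0.10, whereas Ccn2, of nearly the same length at 2861, was at 0.04. Without control replicate 3 the differences between VC and control were -0.38 for Srf, -0.28 for Ccn2, -0.15 for Ankrd1, -0.11 for Ccn1 and -0.12 for Amotl2. The groups of these genes did not overlap, so leaving out a control could not turn their sign. The part of exon length in these differences was not tested.

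**Figure D5:**
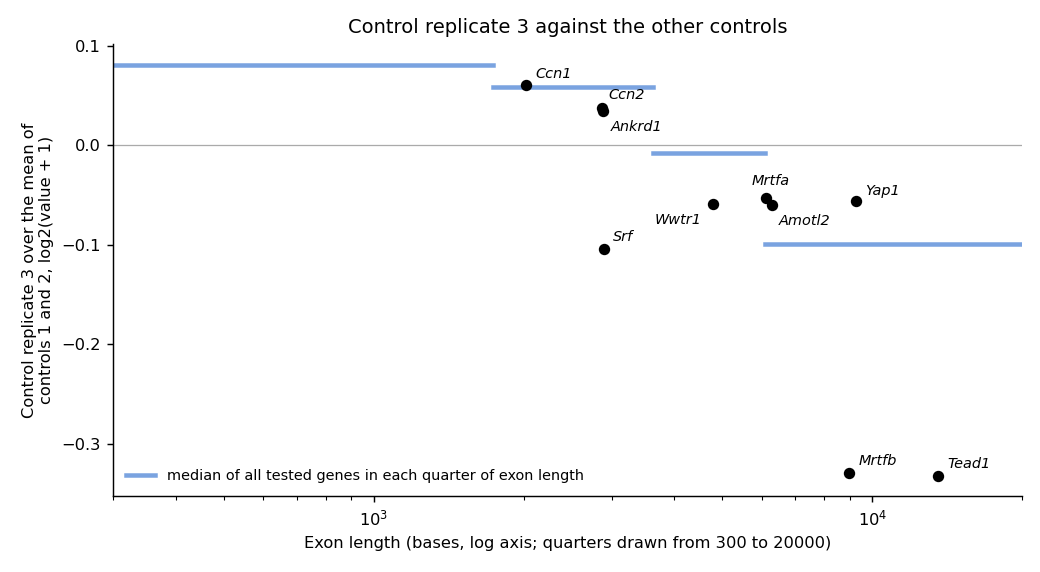
Log2 difference between control replicate 3 and the mean of control replicates 1 and 2 (vertical axis) against exon length (horizontal log axis) for the 10 genes; blue bars give the median of all tested genes in each of 4 groups by exon length. Tead1 and Mrtfb lie at -0.33, below the -0.10 of the longest group, and Ccn1, Ccn2 and Ankrd1 lie just above 0.

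The genes most like Srf and Ccn2 over the 6 libraries were sought among 7523 tested genes with a mean value of 10 or more, by Pearson's r of log2(value + 1). With 2 groups of 3 libraries, r mostly follows the gap between groups, and it is given as a description. Rab22a, an endosomal GTPase, was most like Srf (r = 0.998), followed by Wdr43 (0.992), a protein of ribosome biogenesis, and Dcun1d5 (0.989), which promotes cullin neddylation. Their changes differed in size: Rab22a went from 31.7, 31.2 and 30.8 to 28.5, 29.1 and 28.6, whereas Dcun1d5 went from 82.1, 74.9 and 76.3 to 57.6, 62.5 and 59.9. Bcar1, the adhesion scaffold p130Cas, was most like Ccn2 (r = 0.996), at 97.8, 98.8 and 100.6 in control and 86.1, 88.4 and 87.8 in VC. Next came the enolase Eno1 (0.992) and Grk6 (0.991), a kinase that acts on G protein-coupled receptors.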

How the data were processed

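Sequencing covered RNA of 3 control and 3 VC samples of TM4 cells, in TruSeq libraries, per the labels' protocols. Reads were aligned with HISAT2 to GRCm39, per the submitters' processing notes; for the counting tool and annotation, the sources used here give nothing. What the authors deposited is a signal, normalised for length and scaled by 1 factor per library, and TMM stands in the table's name. Column totals were 1007535 to 1058206 in control and 966031 to 983802 in VC, with no overlap. Counts of groups without overlap use these values as deposited, not scaled to equal totals. Columns were matched to samples by group letter and number.

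Symbols (52081 of 55414 rows) and exon lengths came from GENCODE M21 on GRCm38. Value times exon length, divided by 1 step per library, gave whole reads within 0.1 read for 98.74% to 98.89% of values under 1000 reads, and for 9 of the 10 genes; Mrtfa was the exception. Genes that reached 1 in at least 3 libraries were tested on log2(value + 1) in limma 3.58.1 (R 4.3.3) with an intensity trend and no block, by two-sided tests adjusted over 13972 genes after Benjamini and Hochberg; differences are VC minus control and understate the change of low genes. Paralog levels were compared with SciPy 1.17.1. The procedure was checked on simulated data. Alternatives were pseudocounts of 0.25 and 5, other filters, scalings and variance models, limma-voom on recovered reads, a replicate block and each library left out.

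The genes and lists were chosen with earlier results of these data known. Named genes are the 10, up to 5 called genes of each pathway list or, with fewer than 2, the 2 of smallest p, the paralogs, and the 3 genes most like Srf and Ccn2; others are said to be picked later or stand as examples of a list. The result of 1 further gene list is not reported here.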

Additional observations from a re-analysis of the deposited data

How the results depend on the processing

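The number of all genes called by limma, 96, became 30 with no filter, 183 with a mean value of 5 or more, 217 with equal totals, 533 with limma-voom on recovered reads, 254 with library weights, 6 with no intensity trend and 0 with the replicate block (2039 at an unadjusted p under 0.05); with 1 library left out it was 0 to 82. Of the 10 genes, 2 were called, but 0 with no filter, no intensity trend or the replicate block, and 1, Ccn2, with equal totals or quantile normalization; leaving out libraries gave 0 to 2. For SRF-MRTF targets 6 became 2 with no filter, 10 with a mean value of 5 or more, 14 with limma-voom, 11 with library weights, 1 with no intensity trend and 0 with the replicate block, and 0 to 5 with 1 library left out. The list of immediate early genes and ternary complex factors went from 0 to 1 with equal totals, quantile normalization or library weights, to 2 with limma-voom, and to 0 to 1 with left-out libraries; the Hippo list went from 0 to 1 with limma-voom. The sign of Yap1 turned to 0.054 with equal totals and 0.008 without control replicate 1 (-0.039 to 0.008 over left-out libraries), and that of Tead1 to 0.047 with equal totals and to 0.022 and 0.042 without control replicates 1 and 2 (-0.134 to 0.042 over left-out libraries). Srf and Ccn2 were below 0 in all 16 settings, which is a description, since their fall chose the set. Their groups do not overlap, so only settings that rescale the libraries could have turned the sign. Paralog log2 ratios kept their direction with a pseudocount of 1 and with 1 library left out, but the 4 pairs given with an adjusted p of 0.0375 then stood at 0.0625 to 0.075, since 5 libraries cannot give a p under 0.0625. Fits with fewer libraries or more genes have less power. Without control replicate 3, limma still called 82 of all genes, and without any other single library it called 0 or 1. What causes these changes in count was not tested. Deviations of same-numbered control and VC libraries correlated at -0.019 to 0.005, so the numbers were not taken to pair them.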
